A study of Mus musculus with 6 samples.

Results

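A set of 9 genes of the provisional and remodelling matrix was followed in stromal cells of mouse skin and skin wounds. They are fibronectin (Fn1), the tenascins C, N and XB (Tnc, Tnn, Tnxb), periostin (Postn), its relative Tgfbi, the collagen triple helix protein Cthrc1, Fndc1 and Ecm1. They were chosen as listed genes by their gene identifiers in the authors' deposited table, where all 9 have a row. All 9 were among the 16684 genes tested here. RNA came from mice carrying a transgene with GFP under the smooth muscle actin (SMA) promoter. All cells had been sorted as negative for CD45, found on white blood cells, and for CD31, found on endothelium. Skin cells (SMA+, labelled fibroblast-like) had low GFP and came from dermis. Wound cells (SMA+++, labelled myofibroblast) had high GFP and came from wounds 7 days after injury. Each group had 3 one-colour Agilent arrays. Design 026655 held the first and second skin and wound replicates, and design 028005 the third of each, which carries no replicate number in the labels. Age, sex, strain and pooling of the mice are not given in the sources used here, and the labels do not state whether the replicates are different mice. The p-values therefore reflect the scatter among these arrays, and part of it may be technical. GFP level and injury changed together and cannot be told apart in any difference below.

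Fibronectin is a large adhesive glycoprotein that cells assemble into fibrils and to which integrins, collagens and growth factors bind. It forms part of the first matrix of a wound. Tenascin C, periostin and Cthrc1 are secreted matrix proteins known as products of activated fibroblasts in injured tissue. Tenascin XB is a tenascin of mature connective tissue whose loss causes a form of Ehlers-Danlos syndrome with lax skin.

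The 6 arrays had between 64.4% and 72.6% of spots well above background and 0 saturated spots. For Acta2, the gene of the sorted reporter's promoter, wound cells were above skin cells by 26.2-fold (log2 difference 4.71, SE 0.16, adjusted p = 4.93e-05), which checks the labels and is no finding. Values below are log2 of the processed signal over the 75th percentile of the array, so that 0 is the signal at that percentile. The median of tested genes stood between -0.659 and -0.611 on the arrays of design 026655 and at 0.385 (skin) and 0.442 (wound) on design 028005, so levels were compared within a design. Differences come from a limma model with the array design as a term, and a gene was called at a Benjamini-Hochberg adjusted p under 0.05 over all genes. Of all genes tested, 34.2% were called, 18.8% higher and 15.3% lower in wound cells. This balance turned with the scaling, from 3138 higher and 2560 lower to 2595 and 2979 with the 75th percentile over detected probes, and to 2493 and 2711 in the authors' deposited table. The number of arrays limits the precision.

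Of the 9 genes, 6 were called higher in wound cells, 1 was called lower and 2 did not pass the threshold. Cthrc1 rose most, followed by Tnc, Fndc1, Postn, Fn1 and Tnn, and Tnxb fell. The median log2 difference of the 9 was 1.33, against 0.05 over all genes tested. Within each array design, wound and skin values did not overlap for 7 of the 9 genes. Over all genes tested this was so for 57.5%, so that lack of overlap is common in these data. All 9 were well above background on all 6 arrays, and none needed a bound. In bulk RNA of sorted cells, a change in the share of a cell type and a change in RNA per cell cannot be told apart.

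**Figure D1:**
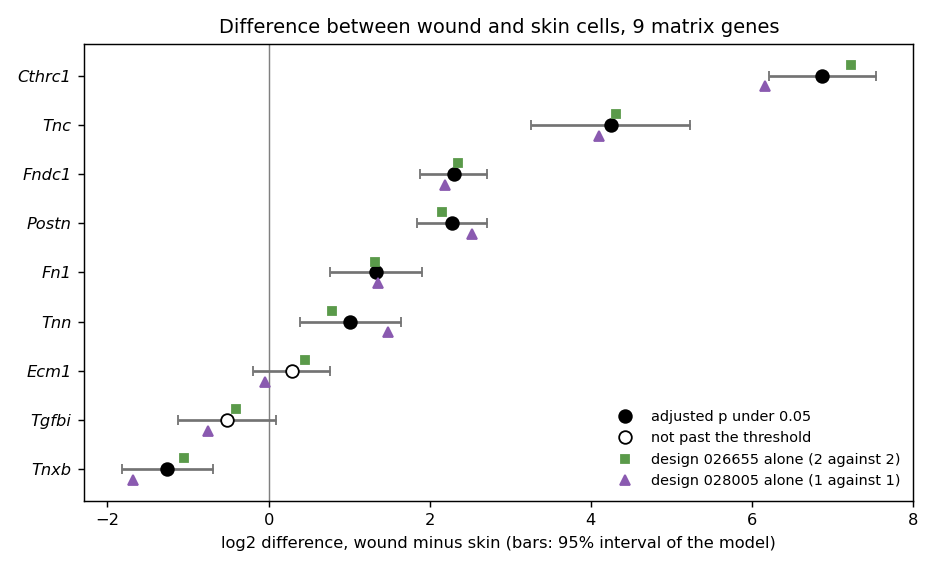
Log2 difference between wound and skin cells for each of the 9 genes. Circles are the model's estimate on 3 arrays per group with its 95% interval, filled where the adjusted p was under 0.05. Squares and triangles are the differences within each array design. Cthrc1 stands at 6.87 and Tnc at 4.24, Tnxb lies below 0 at -1.26, and the intervals of Ecm1 and Tgfbi include 0.

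Markers of other cells moved with the groups, and their part in the results was not tested. For comparison, 18.8% of all genes tested were called higher and 15.3% lower. Ranges of summed signals given below span both array designs. Keratinocyte markers were lower in wound cells for 9 of 10 tested (3 of the 4 that were well above background on all 6 arrays), and their summed signal ran from 19.1 to 42.2 times the 75th percentile on the skin arrays and from 4.22 to 10.3 on the wound arrays. Trp63, the marker not called (log2 difference -0.27), made up most of the keratinocyte sums on the wound arrays. The median log2 difference of the 10 markers was -4.27. Krt1, Cdh1 and the Schwann cell gene Cdh19 were well above background on none of the wound arrays. Pericyte and smooth muscle markers were higher for 7 of 10, with sums of 33.6 to 65.5 on the skin and 88.8 to 234 on the wound arrays. Mcam, Pdgfrb and Cspg4, not called, made up most of these sums on the skin arrays. The median log2 difference of these 10 markers was 3.23. Schwann cell markers were lower for 5 of 7 (4 of the 5 well above background on all 6 arrays). On design 026655 their sums were 3.12 and 2.91 on the skin and 1.92 and 1.52 on the wound arrays. On 028005 they were 9.10 on the skin and 3.81 on the wound array. Endothelial markers were higher for 4 of 9 (2 of the 7 well above background on all 6 arrays). Their sums were 4.38 and 4.02 on the skin and 6.87 and 6.46 on the wound arrays of design 026655, and 17.0 and 15.3 on those of 028005. Kdr, not called, made up most of each endothelial sum, so these sums do not measure the share of endothelial cells. White blood cell markers had 0 higher and 1 lower of 10. Of the 6 well above background on all 6 arrays, 0 were higher and 0 lower. The lower marker, S100a8, passed the filter only through the skin arrays. On design 026655 the sums were 21.0 and 20.5 on the skin and 21.0 and 31.0 on the wound arrays. On 028005 they were 104 on the skin and 96.1 on the wound array. Itgam made up most of each of these sums, so they do not measure the share of such cells. Ptprc, the gene of CD45, was well above background on 3 of 3 skin arrays and 1 of 3 wound arrays, and Pecam1, the gene of CD31, on all 6. Of 12 dermal fibroblast markers 5 were lower and 0 higher, and all 12 were well above background on all 6 arrays. Adipocyte markers were higher for 1 of 3 (sums 1.61 to 5.59 and 10.9 to 26.4), the sums being mostly the signal of Fabp4. Skeletal muscle markers were higher for 2 of 3 (0.354 to 1.26 and 2.11 to 8.59), or 1 of the 2 well above background on all 6 arrays. Acta1 made up most of their sums on the wound arrays. All 7 myofibroblast markers were higher (51.9 to 126 and 342 to 813). Among them is Acta2, whose promoter drives the sorted reporter, so its rise is no finding.

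Fn1 encodes fibronectin. It stood at 6.44, 5.65 and 7.31 on skin replicates 1, 2 and 3 and at 7.21, 7.51 and 8.67 on wound replicates 1, 2 and 3. Both wound arrays lay above both skin arrays on design 026655, and the wound array lay above the skin array on 028005. The rise was 2.52-fold (log2 difference 1.33, SE 0.24, adjusted p = 0.00691), and 7.64% of all genes tested had a larger rise. Skin replicate 2 had the lowest Fn1 value on its design, and without it the difference was 1.11, still called (adjusted p = 0.0164). The 1 probe does not separate the spliced forms of fibronectin.

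Tnc encodes tenascin C, a hexameric matrix protein that weakens the adhesion of cells to fibronectin. It stood at -1.67, -0.35 and 0.14 on the skin arrays and at 2.79, 3.81 and 4.25 on the wound arrays. Every wound value was above every skin value on both designs. The rise was 18.9-fold (log2 difference 4.24, SE 0.41, adjusted p = 0.000605), and 0.491% of all genes had a larger one. The SE of Tnc was the largest of the 9. On design 026655 replicate 1 was below replicate 2 by 1.32 in skin cells and by 1.02 in wound cells, a wider gap than that of Postn on these arrays.

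Tnn encodes tenascin N, also called tenascin W, a tenascin of bone, tendon and periosteum. Its values were 3.32, 4.02 and 4.17 on the skin arrays and 4.29, 4.62 and 5.65 on the wound arrays. Groups did not overlap within a design, but on design 026655 the higher skin array (4.02) came close to the lower wound array (4.29). The rise was 2.02-fold (log2 difference 1.02, SE 0.26, adjusted p = 0.0265), with 0.78 on design 026655 and 1.48 on 028005. Of the 7 called genes Tnn lost its call in the most alternatives. The call was lost without skin replicate 1 (0.88, adjusted p = 0.0966), without wound replicate 2 (0.99, adjusted p = 0.0760), without skin or wound replicate 3, which leaves the fit on design 026655 alone (0.78, adjusted p = 0.109), and with quantile normalization (0.84, adjusted p = 0.0806).

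Tnxb encodes tenascin XB, which binds collagen and links its fibrils. It was at 5.72, 5.08 and 6.38 on the skin arrays and at 4.37, 4.33 and 4.70 on the wound arrays. Skin values were above wound values on each design, and the wound arrays lay closer together than the skin arrays. Tnxb was 2.39-fold lower in wound cells (log2 difference -1.26, SE 0.23, adjusted p = 0.00803), with -1.05 on design 026655 and -1.68 on 028005. A larger fall was seen for 8.00% of all genes. The gene table also lists Tnxa, a partial copy of this gene, and whether the Tnxb probe binds its RNA was not tested. Of the 3 tenascin genes tested, 2 rose and 1 fell, and Tnr, the tenascin of the nervous system, was not among the genes tested.

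**Figure D2:**
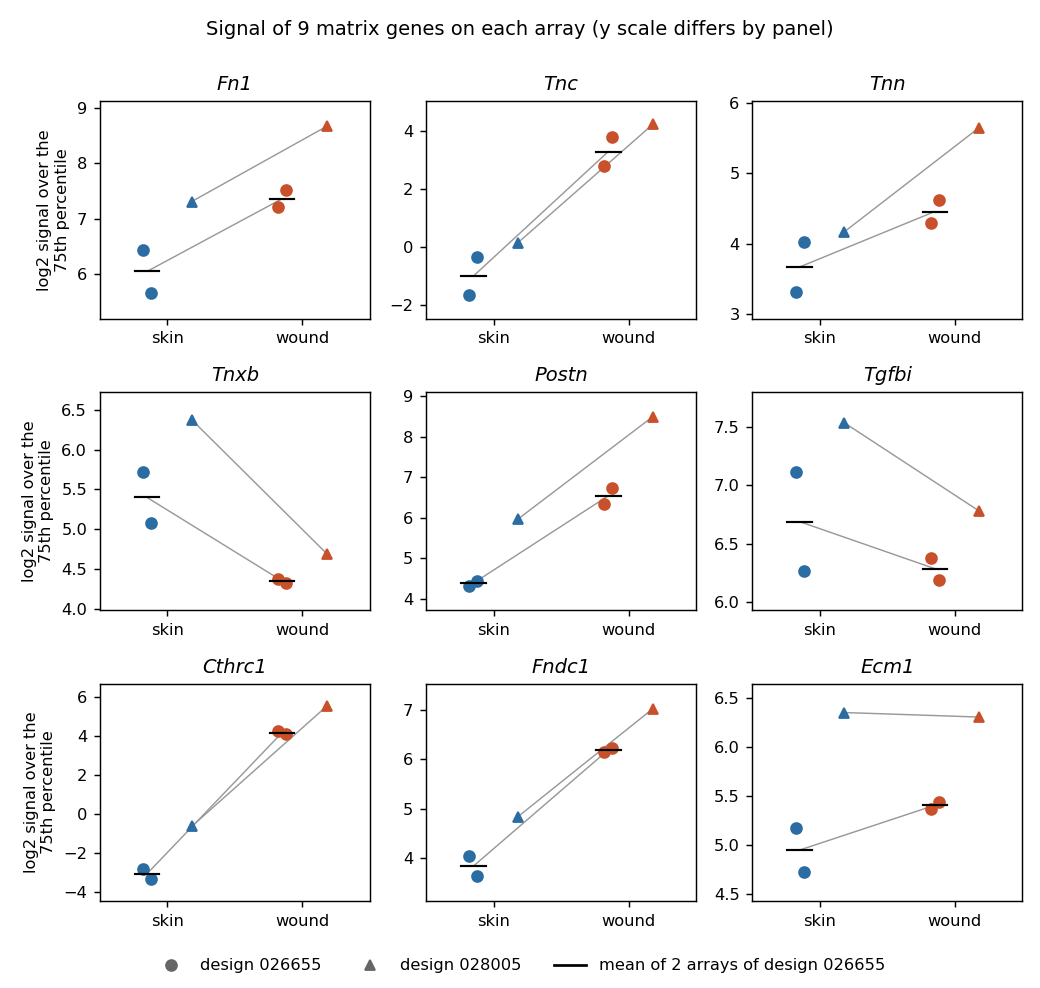
Signal of each of the 9 genes on each array, as log2 over the array's 75th percentile. Circles are the 2 arrays per group of design 026655 with their mean as a bar, and triangles are the 1 array per group of design 028005. Grey lines join skin and wound within a design. The lines rise in both designs for Fn1, Tnc, Tnn, Postn, Cthrc1 and Fndc1, fall in both for Tnxb and Tgfbi, and go opposite ways for Ecm1.

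Sequences before the transcription start were listed by RefSeq (build GRCm38.p6) for 7 of the 9 genes, in 9 entries, since Tnc and Postn have 2 starts each. Fn1 and Cthrc1 were the genes with no entry. The 250 bases before the start are shown for 3 genes that rose and for Tnxb, which fell, as the regulatory stretch nearest to genes that moved in opposite directions. They are Tnc (chr4:64047016-64047265, minus strand), Postn at the inner of its 2 starts (chr3:54360857-54361106, plus strand), Fndc1 (chr17:7827303-7827552, minus strand) and Tnxb (chr17:34670285-34670534, plus strand), each written 5′ to 3′ along the gene. Capitals mark matches on either strand to 6 motifs: TATAAA, the AP-1 motif TGANTCA, the Smad motif CAGACA, the TEAD motif GGAATG, the Sp1 motif GGGCGG and the CArG box of serum response factor.
Tnc: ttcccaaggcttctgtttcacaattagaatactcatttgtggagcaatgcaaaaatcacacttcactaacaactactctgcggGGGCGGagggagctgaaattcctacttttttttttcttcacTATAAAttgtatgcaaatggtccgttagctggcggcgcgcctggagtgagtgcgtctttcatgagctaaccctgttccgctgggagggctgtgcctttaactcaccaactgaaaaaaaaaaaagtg
Postn: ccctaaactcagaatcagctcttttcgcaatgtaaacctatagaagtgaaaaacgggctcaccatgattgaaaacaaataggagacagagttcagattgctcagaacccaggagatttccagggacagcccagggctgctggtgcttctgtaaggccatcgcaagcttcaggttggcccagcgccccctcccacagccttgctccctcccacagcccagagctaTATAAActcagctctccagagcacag
Fndc1: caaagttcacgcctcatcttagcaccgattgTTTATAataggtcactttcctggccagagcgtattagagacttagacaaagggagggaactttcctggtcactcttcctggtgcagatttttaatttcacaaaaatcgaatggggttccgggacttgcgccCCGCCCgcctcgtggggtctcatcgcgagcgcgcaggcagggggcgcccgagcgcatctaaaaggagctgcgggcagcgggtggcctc
Tnxb: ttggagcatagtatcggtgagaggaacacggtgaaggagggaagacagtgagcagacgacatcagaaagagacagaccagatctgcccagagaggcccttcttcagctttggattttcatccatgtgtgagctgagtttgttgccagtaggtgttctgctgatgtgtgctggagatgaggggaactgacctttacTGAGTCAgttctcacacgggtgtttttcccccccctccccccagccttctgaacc
In Tnc, TATAAA lay 126 to 121 bases and GGGCGG 167 to 162 bases before the outer of its 2 starts, whose window is shown. Before the inner Tnc start they lay at 205 to 200 and 246 to 241 bases. In Postn, TATAAA lay 26 to 21 bases before the inner start, and the window of the outer start had no match to the 6 motifs. Fndc1 had GGGCGG on the other strand 88 to 83 bases before its start and TATAAA on the other strand at 219 to 214. Tnxb held TGAGTCA, a match to TGANTCA, 55 to 49 bases before its start. Among 32851 listed windows of this length, 12.4% held TATAAA, 32.7% GGGCGG, 6.75% TGANTCA, 17.1% CAGACA, 12.6% GGAATG and 1.47% the CArG box, and overlaps between motifs were allowed. The CArG box had no match in any of the 9 windows of these genes. TGAGTCA also lay in Ecm1, 64 to 58 bases before the start, TATAAA in Ecm1, and GGGCGG in Ecm1 and Tgfbi. GGAATG matched only in Tnn, and CAGACA in Ecm1 and, at the inner start, Tnc. These are matches of letters in a window and do not show that a factor binds.

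Postn encodes periostin, which is built of FAS1 domains and links collagen, fibronectin and tenascin C. It was at 4.33, 4.45 and 5.97 on the skin arrays and at 6.34, 6.75 and 8.49 on the wound arrays. The replicates of design 026655 lay close together in both groups, 0.12 apart in skin and 0.40 apart in wound cells. Postn rose 4.84-fold (log2 difference 2.28, SE 0.18, adjusted p = 0.000312), and the difference stayed between 2.15 and 2.43 over the alternatives in which the model, scaling, filter, probes or arrays were changed. Its call held in all of them.

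Tgfbi is the nearest relative of periostin, with the same domains, and binds collagens and integrins. Its values were 7.11, 6.27 and 7.54 on the skin arrays and 6.38, 6.19 and 6.78 on the wound arrays. On design 026655 the groups overlapped, since skin replicate 2 lay below wound replicate 1. The log2 difference was -0.52 (SE 0.25, adjusted p = 0.162, 95% interval -1.13 to 0.09) and did not pass the threshold. Without skin replicate 2 it was -0.80 and was called (adjusted p = 0.0275), so this 1 array decides whether 1 or 2 of the 9 genes are called lower. Postn and Tgfbi, the FAS1 relatives, thus had differences of 2.28 and -0.52.

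Cthrc1 encodes a secreted glycoprotein with a short collagen-like stretch that is produced by activated fibroblasts and smooth muscle cells of injured tissue. It stood at -2.78, -3.30 and -0.62 on the skin arrays and at 4.28, 4.10 and 5.54 on the wound arrays. The skin signals were below the 75th percentile on each array and the wound signals far above it. The rise was 117-fold (log2 difference 6.87, SE 0.27, adjusted p = 6.29e-05), and 11 of the 16684 genes tested rose more, or 0.0659%. It was 7.23 on design 026655 and 6.16 on 028005. Dim skin signals weigh on this size, and with normexp background correction, which adds an offset of 50 to each signal, the difference was 6.23. The call held in all alternatives run.

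Fndc1 encodes a secreted protein with fibronectin type III repeats. It stood at 4.05, 3.64 and 4.84 on the skin arrays and at 6.15, 6.23 and 7.03 on the wound arrays, and every wound array was above the skin arrays of its design. The rise was 4.91-fold (log2 difference 2.29, SE 0.17, adjusted p = 0.000249), the smallest SE of the 9 genes, and stayed between 2.04 and 2.40 over the alternatives. Ecm1 encodes extracellular matrix protein 1, a glycoprotein of skin whose loss causes lipoid proteinosis. It was at 5.17, 4.72 and 6.35 on the skin arrays and at 5.37, 5.44 and 6.30 on the wound arrays. The wound arrays were higher on design 026655 and not on 028005. The log2 difference of 0.29 (SE 0.20, adjusted p = 0.305, 95% interval -0.19 to 0.77) did not pass the threshold, and the interval does not reach a 2-fold change in either direction.

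Probe by probe, 14 probes on both designs read the 9 genes. In a limma model over 25791 probes, 10 of the 14 were called higher and 1 lower, against 15.4% and 13.4% of all probes tested. A single probe read each of 6 genes. The 4 Fndc1 probes were all called higher, with log2 differences of 2.38, 2.29, 2.10 and 1.67 (SE 0.20, 0.18, 0.34 and 0.22). The lowest of them, A_55_P1989519, was also the dimmest, at -4.70 to -4.44 on the skin arrays, and gave 0.75 under normexp. Both Tnc probes were called higher but differed in size, with 4.24 (SE 0.41, adjusted p = 0.000673) for A_52_P355169 and 3.05 (SE 0.40, adjusted p = 0.00218) for A_55_P2421597. Each had a narrow range between arrays of the same number, 4.10 to 4.47 for the first and 2.80 to 3.23 for the second, and they share 1 RefSeq accession. The size of the Tnc rise therefore depends on the probe. With normexp the same probes gave 3.90 and 2.84. The mean of both gave 3.65, and the authors' deposited table, entered in the same model, 3.58. Over the alternatives the gene's difference ran from 3.17 (normexp) to 4.60 (without skin replicate 2), and its call held. Neither Ecm1 probe passed the threshold (log2 differences 0.29 and 0.14, adjusted p = 0.334 and 0.663).

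**Figure D3:**
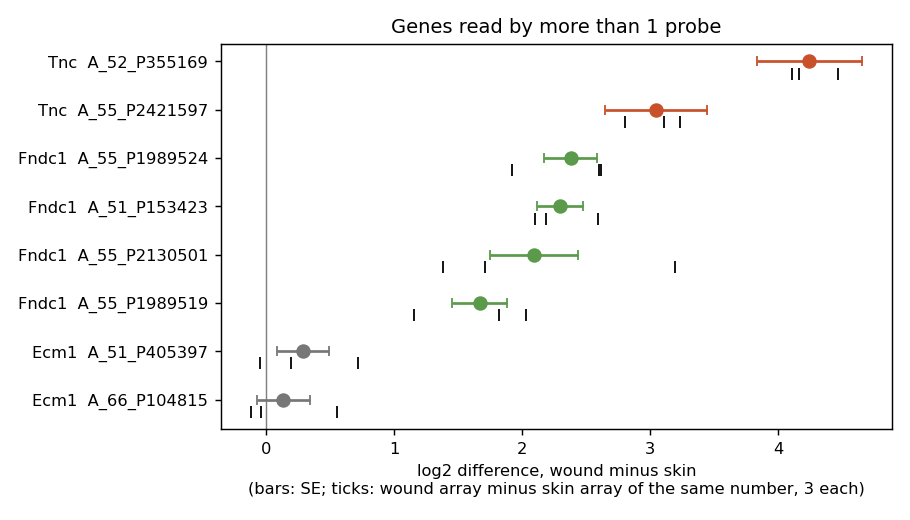
Log2 difference between wound and skin cells for each probe of the 3 genes with more than 1 probe. Circles are limma estimates with the SE as a bar, and ticks are the wound array minus the skin array of the same number. The 4 Fndc1 probes lie between 1.67 and 2.38, the 2 Tnc probes at 3.05 and 4.24, and both Ecm1 probes near 0.

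The genes most like each of the 9 were found by the Euclidean distance over the 6 arrays after the gene's own mean was subtracted, with the 9 genes themselves left out. This is a description in which the wound to skin difference and the array designs weigh most. Cthrc1 was nearest to Adamts16, a metalloproteinase (distance 0.703), and the homeobox gene Dbx2 (0.751). Tnc was nearest to Adgrf5 (0.749) and Rgs8 (0.860), and Postn to Bmp5 (0.394) and Hspb7 (0.460). Fn1 lay nearest to Serpinb9 (0.294) and Clec2l (0.356), Fndc1 to Moxd1 (0.0910) and Pcdh19 (0.145), and Tnn to Clstn2 (0.273) and Ap1s2 (0.332). Tnxb was nearest to Gm6978 (0.183) and Ifit2 (0.297), leaving out 1 closer gene with no symbol, Tgfbi to the complement factor gene Cfb (0.197) and Dusp28 (0.329), and Ecm1 to Pcolce (0.0742) and Naprt (0.0812).

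Of 19 receptors for these proteins tested, 8 were higher, 4 lower and 7 did not pass the threshold, with a median log2 difference of 0.18. Of the 17 well above background on all 6 arrays, 7 were higher and 4 lower. Over all genes tested 18.8% were called higher and 15.3% lower, the shares to set beside this and each later list. Itga5 and Itgb1, the 2 chains of the main fibronectin receptor, rose 3.97-fold and 2.24-fold (log2 1.99 and 1.16, adjusted p = 0.000565 and 0.00400). Itga4, whose dimer with Itgb1 binds a spliced segment of fibronectin, rose 4.23-fold, and Itgb3, a partner of Itgav in binding fibronectin, periostin and Tgfbi, rose 3.24-fold. The value of Itgav itself was 0.04 on the log2 scale (SE 0.23, adjusted p = 0.914), and its sign turned under other scalings. Cd44, the hyaluronan receptor, rose 4.64-fold and Itga7, mainly known as a laminin receptor, 9.69-fold. Lower were Itga8 and Itga9, integrin chains of tenascin C receptors, by 8.05-fold (log2 -3.01, SE 0.31) and 2.10-fold (log2 -1.07, SE 0.16). The fibronectin co-receptor Sdc4 fell 3.21-fold, and Ptprz1, a phosphatase that binds tenascins, fell 4.65-fold. As the mean of their probes the log2 values of Cd44, Itga4 and Ptprz1 were nearer to 0, at 1.61, 1.39 and -1.43.

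Genes of the matrix around fibronectin and periostin were higher for 15 of 26, lower for 5 and not past the threshold for 6, with a median of 0.90. Col12a1, a fibril-associated collagen that binds tenascin, rose 17.1-fold (log2 4.10, SE 0.25), and by 3.11 on the log2 scale as the mean of its probes. Col5a1 rose 4.47-fold and Ccn3, a matricellular protein, 4.41-fold. F13a1, a transglutaminase chain that crosslinks fibrin and fibronectin, fell 96.2-fold (log2 -6.59, SE 0.16, adjusted p = 3.80e-05). It was well above background on 2 of 3 wound arrays, so it passed the filter only through the skin arrays. Its log2 difference was -4.48 under normexp and -4.71 as the mean of its probes. Ltbp1, which ties latent TGF-beta to fibronectin, fell 3.91-fold (log2 -1.97), with a log2 difference of -0.89 as the mean of its probes. Fbln5, an elastic fibre protein, fell 2.30-fold. Tgm2, the crosslinking enzyme of tissues, had a log2 difference of -0.07 (adjusted p = 0.737).

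TGF-beta is a well known inducer of Fn1, Tnc, Postn and Tgfbi. Of 22 genes of its pathway 8 were higher, 3 lower and 11 not past the threshold (median 0.21). The split depends on the scaling, with 5 higher and 5 lower out of the 22 when the 75th percentile was taken over detected probes. All 3 ligands were called higher: Tgfb2 by a log2 of 1.12 (SE 0.16, adjusted p = 0.00301), Tgfb3 by 0.93 (SE 0.14, adjusted p = 0.00369) and Tgfb1 by 0.67 (SE 0.20, adjusted p = 0.0409). Tgfb1 lost its call in most alternatives, among them the authors' deposited table (0.60, adjusted p = 0.0710) and the models without skin replicate 1, 2 or 3 or wound replicate 1 or 3 (adjusted p = 0.0825 to 0.164). The cytokine Il11 rose 7.72-fold and the activin chain Inhba 5.29-fold. The receptors Tgfbr3 (log2 -1.17), Eng (-0.59) and Tgfbr1 (-0.59) were lower. Eng lost its call without any 1 of the 6 arrays (adjusted p = 0.0596 to 0.144), and Tgfbr1 without replicate 1 or 2 of either group (adjusted p = 0.0662 to 0.121). As the mean of its probes Tgfbr1 gave -1.18 (adjusted p = 0.0493). It was not called in the authors' deposited table (-1.12, adjusted p = 0.0601) or with no filter (adjusted p = 0.0681).

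**Figure D4:**
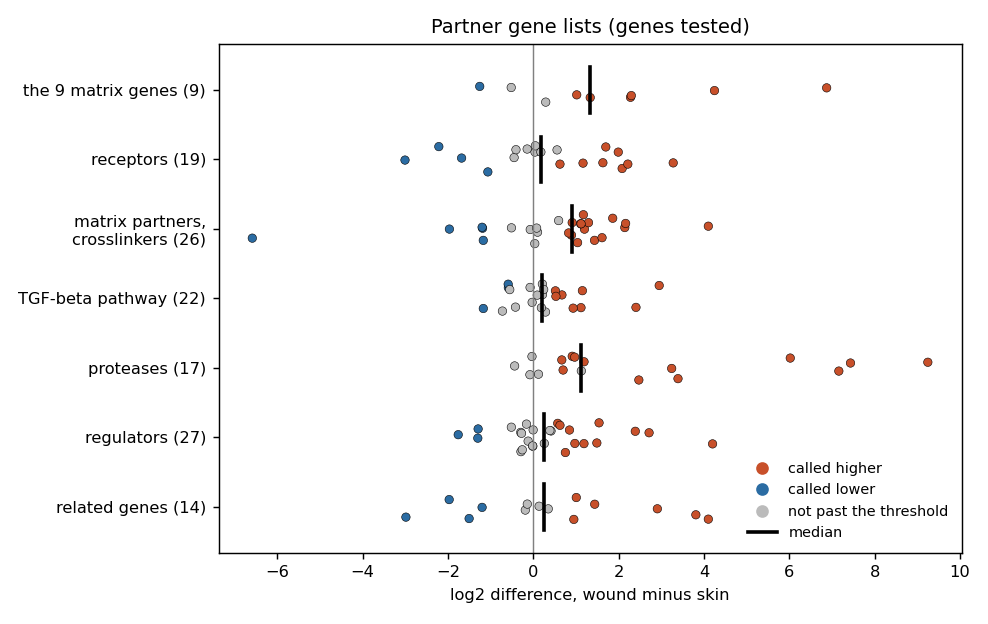
Log2 difference between wound and skin cells for the 9 genes and for each gene tested in 6 lists of partner genes, 1 point per gene. Colours give the call, black bars the median of each list, and the number tested stands in brackets. The proteases have 12 genes called higher and 0 lower, while the receptors have 8 and 4.

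Proteases that cut fibronectin or tenascin C were higher for 12 of 17, with 0 called lower and 5 not past the threshold (median 1.12). With the 75th percentile over detected probes they were 10 higher and 1 lower. No skin array had Mmp10 or Mmp9 well above background, so their rise is a bound, at least 205-fold for Mmp10 and at least 56.1-fold for Mmp9. Both passed the filter on dim probes only through the wound arrays, so a rise was built into their being tested. Of the 13 protease genes well above background on all 6 arrays, 9 were called higher. In a bound the wound mean is divided by a floor, which on each skin array is the dimmest detected probe or, where brighter, the signal of the gene itself. These bounds hold for the processed signal, and normexp gave log2 differences of 5.17 and 3.52. Adamts16, well above background on 1 of 3 skin arrays, also passed the filter only through the wound arrays. Its log2 difference was 7.16, or 5.49 as the mean of its probes and 3.65 under normexp. The fibroblast protease Fap and the plasminogen activator Plau, named after their values were seen, rose 2.28-fold and 10.5-fold (adjusted p = 0.00193 and 0.000278).

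Regulators linked to tenascin, periostin or Cthrc1 were higher for 11 of 27, lower for 3 and not past the threshold for 13 (median 0.26). Of the 26 well above background on all 6 arrays, 10 were higher and 3 lower. With the authors' deposited table in the same model, 7 of the 27 were higher and 4 lower. The transcription factors Gata6, Sox9 and Sox4 rose 18.4-fold, 6.55-fold and 5.23-fold (log2 4.20, 2.71 and 2.39), Gata6 by 2.91 under normexp. Twist1, a factor known to drive Postn, fell by 3.39-fold (adjusted p = 0.000495, log2 -1.76, SE 0.16). Egr1 and Pdgfra were 2.47-fold and 2.45-fold lower. The actin-regulated coactivators Mrtfa and Mrtfb, chosen after their values were seen, rose by 0.85 and 0.57 on the log2 scale (adjusted p = 0.00939 and 0.0216), while their partner Srf had a difference of -0.29 (adjusted p = 0.226).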

How the data were processed

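The deposited scanner files hold intensity values made with Agilent Feature Extraction 10.7.3.1 (design files on build mm9), per the file headers; the processed signal is background-subtracted and detrended and is not scaled between arrays. The authors' deposited table, made with GeneSpring 14.5 per the series' design text, holds values on what their match to the scanner data shows to be a log2 scale. On design 028005 its 2 values of each gene sum to -0.48 throughout, so genes were centred within a design, and its levels were not used.

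Spots that were controls or carried an outlier flag were dropped, and repeat spots of a probe were averaged. Probes were named through the deposited table (26442 on each design) or their RefSeq accession in a GRCm38.p6 gene table used for names only. Processed signals were taken to log2 and each array was shifted so that its 75th percentile lay at 0. Each gene took its brightest probe on each design, and genes well above background on all 3 arrays of a group were tested with limma 3.58.1 (R 4.3.3; lmFit, eBayes, array design as a fixed term). The residual degrees of freedom were 3, and 6.29 after moderation. The code was tested on simulated data. The planned mean spot signal for normexp was replaced by the median spot signal. Tables used Python 3.11.15 and pandas 2.3.3, figures matplotlib 3.10.9.

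The 9 genes, the partner lists and the markers were chosen with earlier results of these data known. All 9 genes are named, with, from each partner list, the 3 called genes of largest increase and decrease, a fixed set of receptors, ligands and Tgm2, and the 2 genes nearest to each of the 9; a gene that this rule names is not reported here. Alternatives changed the scaling, background correction, probe choice, filter, model term, threshold and arrays used.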

Additional observations from a re-analysis of the deposited data

How the results depend on the processing

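The count of 5698 called genes fell to 1780 with no array design term and to 3196 at an adjusted p under 0.01, and ranged from 3775 (without skin replicate 1) to 5059 when 1 array was left out. Of the 9 genes 4 to 6 were called higher over all alternatives and 5 to 6 with 1 array left out. The number called lower was 0 with no array design term and 1 to 2 with 1 array left out, and was 2 only without skin replicate 2. Of the 14 probes of these genes 11 were called, 7 with no array design term and 10 to 12 with 1 array left out. With no array design term Fn1, Tnn and Tnxb lost their calls (adjusted p = 0.201, 0.467 and 0.251), as did Itgb1, Itgb3, Itga9, Sdc4, Fbln5, Egr1, Pdgfra, Fras1, Eng and all TGF-beta ligands and receptors named (adjusted p = 0.0536 to 0.904). Tnn also lost its call with no filter (adjusted p = 0.0659) and at the threshold of 0.01. The sign turned only for values near 0 and not called: Ecm1 probe A_66_P104815 gave -0.0751 on design 026655 alone, and -0.0751 to 0.2835 with 1 array left out. Itgav gave -0.0633 with the 75th percentile over detected probes, -0.0184 with quantile normalization, -0.0603 in the authors' deposited table and -0.2057 to 0.225 with 1 array left out. Tgm2 gave 0.0231 on design 026655 alone and -0.1342 to 0.0231 with 1 array left out. The causes were not tested. Taking the 75th percentile over detected probes moved the median of all genes by -0.101, and each log2 difference with it.

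Replicate numbers 1 and 2 are shared by both groups in the labels. The deviations of like-numbered arrays correlated at 0.153 over genes with 2 such pairs, which does not establish a pairing. A replicate block called 5602 genes and the same number of the 9 genes (6 higher, 1 lower), with adjusted p = 0.0137 for Fn1 and 0.0209 for Tnn, and Tgfb1 lost its call (adjusted p = 0.0538).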

Other observations

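Genes listed as related to these proteins, not all by a shared fold, were higher for 6 of 14 tested, lower for 4 and not past the threshold for 4. Of the 13 well above background on all 6 arrays, 6 were higher and 3 lower. The median log2 difference of the 14 was 0.24. Fndc5, the precursor of irisin, rose 14.0-fold (log2 3.81, SE 0.37, adjusted p = 0.000597), with 3.02, 4.86 and 3.54 between arrays of the same number. Col14a1, a collagen with fibronectin type III repeats, rose 7.49-fold (log2 2.91, SE 0.21). Fndc3b, named after its value was seen, rose by 0.95 (adjusted p = 0.00458). Ecm2, another matrix protein, fell 7.93-fold (log2 -2.99, SE 0.20), Egflam fell 3.93-fold and Fras1, a protein of the skin basement membrane, 2.84-fold. Fras1 lost its call without replicate 1 or 3 of either group (adjusted p = 0.0534 to 0.0602), and its difference was -0.65 under normexp, where that of Egflam was -1.11.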
